A study of Drosophila melanogaster with 2 samples.

Results

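The genes described here encode the vacuolar protein sorting (Vps) proteins and the ESCRT machinery of Drosophila melanogaster, and their promoters were examined for peaks of Myb-GFP in whole embryos. Members were the protein-coding genes of the Ensembl annotation whose symbol is Vps followed by a digit, plus TSG101, shrb, lsn, ALiX, Stam, Hrs, Chmp1, dor, car and lt, which gave 37 of the 13945 protein-coding genes on the chromosome arms. By complex, 16 members belong to ESCRT, 7 to HOPS and CORVET, 3 to retromer and 11 to other Vps groups. The embryos came from a stable transgenic line that expresses Myb with GFP fused to its C terminus, were 0 to 24 h old and of both sexes, and gave 2 biological replicates, the only group of the series. Chromatin was precipitated with an antibody against GFP. No sample without the transgene and no input was analysed here, both replicates come from 1 line, and whole embryos mix all tissues and stages. The submitters called peaks against a control library. Open chromatin was not measured here, so its part in any promoter peak below was not tested.

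Endosomes carry membrane proteins either back to the cell surface or Golgi or onward to the lysosome. ESCRT complexes sort ubiquitinated receptors, such as those of the Notch and growth factor pathways, into vesicles inside the endosome. ESCRT-III filaments, taken apart by the ATPase Vps4, also cut membranes at the end of cytokinesis and reseal the nuclear envelope. HOPS and CORVET tether late and early endosomes before fusion, and retromer returns cargo from endosomes. Myb binds DNA as part of the Myb-MuvB complex and is best known at genes of the G2 and M phases.

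A gene was called bound when a summit of the called set, the 6100 peaks that the submitters selected by irreproducible discovery rate, lay within 500 bp of any of its annotated TSSs. By this rule 26 of the 37 members were bound (70.3%), and the same rule called 35.6% of all protein-coding genes. The members were listed with earlier results of these data in view and their own calls are part of the rule, so this share is a description and was not tested. The signal of a peak is the submitters' own value, in units the sources used here do not name. The lists hold no read counts, so depth is unknown. Each list has its own signal scale, so peaks are compared within a list, or between lists by rank.

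Windows of 201 bases centred on the strongest called summit are shown for 7 of the 8 members with the highest signal, and for Vps8, 1 of the weakest called peaks, as a contrast. They are read 5' to 3' on the strand of the named gene, from the RefSeq sequence of the assembly that dm6 names. Capitals mark every match, on either strand, to the words searched at these summits. These were the cell cycle homology region CHR (TTTGAA or TTCGAA), the Myb site (CAACGG or TAACGG), the core of the DNA replication element DRE (TATCGATA), the E box of the lysosomal CLEAR element (CACGTG), an E2F site (TTTCCCGC, TTTGGCGC, TTTCGCGC or TTTGCCGC) and the core of promoter motif 1 (GGTCACAC).
Hrs, chr2L:2739881-2740081, plus strand: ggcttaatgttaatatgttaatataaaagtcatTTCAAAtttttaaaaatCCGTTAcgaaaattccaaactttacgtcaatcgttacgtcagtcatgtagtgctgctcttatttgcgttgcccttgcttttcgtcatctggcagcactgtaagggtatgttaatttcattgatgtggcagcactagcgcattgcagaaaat
Vps16B, chr3R:29816385-29816585, minus strand: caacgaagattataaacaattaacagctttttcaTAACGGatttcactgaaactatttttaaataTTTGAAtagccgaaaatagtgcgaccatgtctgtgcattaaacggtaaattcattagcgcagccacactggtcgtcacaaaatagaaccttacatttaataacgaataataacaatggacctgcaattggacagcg
dor, chrX:1664920-1665120, plus strand: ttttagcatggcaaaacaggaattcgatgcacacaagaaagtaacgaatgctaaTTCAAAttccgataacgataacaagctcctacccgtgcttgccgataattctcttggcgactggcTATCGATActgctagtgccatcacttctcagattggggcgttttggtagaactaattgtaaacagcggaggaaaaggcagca
Vps33B, chr3R:25473133-25473333, plus strand: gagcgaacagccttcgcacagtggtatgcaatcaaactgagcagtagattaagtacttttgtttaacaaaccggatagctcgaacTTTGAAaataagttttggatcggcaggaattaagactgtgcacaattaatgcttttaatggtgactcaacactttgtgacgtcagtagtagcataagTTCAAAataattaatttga
Vps60, chr3L:17621595-17621795, minus strand: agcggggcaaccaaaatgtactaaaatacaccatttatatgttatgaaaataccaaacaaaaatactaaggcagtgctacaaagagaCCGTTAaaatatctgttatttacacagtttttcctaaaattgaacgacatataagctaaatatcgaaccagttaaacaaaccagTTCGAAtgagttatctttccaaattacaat
TSG101, chr3L:16842037-16842237, plus strand: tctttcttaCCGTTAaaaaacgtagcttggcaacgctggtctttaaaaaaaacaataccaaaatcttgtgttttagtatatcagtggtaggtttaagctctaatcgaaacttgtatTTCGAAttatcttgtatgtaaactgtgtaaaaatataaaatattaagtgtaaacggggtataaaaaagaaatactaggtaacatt
Stam, chr2L:10858035-10858235, plus strand: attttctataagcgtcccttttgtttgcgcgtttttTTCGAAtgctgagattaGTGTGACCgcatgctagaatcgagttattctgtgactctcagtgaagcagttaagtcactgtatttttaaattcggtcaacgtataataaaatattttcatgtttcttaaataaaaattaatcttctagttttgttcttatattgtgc
Vps8, chr3L:6495550-6495750, minus strand: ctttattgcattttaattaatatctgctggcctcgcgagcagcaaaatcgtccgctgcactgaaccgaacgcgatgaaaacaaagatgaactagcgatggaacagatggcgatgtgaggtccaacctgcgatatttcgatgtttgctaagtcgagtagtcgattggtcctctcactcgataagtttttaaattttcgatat
The Hrs, Vps16B, Vps60 and TSG101 windows each held 1 CHR and 1 Myb word. The dor window held a CHR and a DRE core, that of Vps33B 2 CHR words, and that of Stam a CHR and the motif 1 core. The Vps33B window is centred 175 bp from the start of Fur1 and 257 bp from that of Vps33B. The Stam window is centred 41 bp from the start of aurB and 401 bp from that of Stam. The Vps8 window held none of the 6 words, and it is 1 example only. It is centred 30 bp from the start of sfl and 353 bp from that of Vps8. Among similarly weak peaks, the Vps53 window held a CHR and a DRE core and that of Vps35 a Myb word. The Vps16A and Vps52 windows each held a DRE core, and that of Vps13 held none of the words. Among the 3050 called peaks with the higher signal, 3 of 14 bound members (21.4%) had neither a CHR nor a Myb word. Over the promoter summits of all protein-coding genes in these stronger peaks the share was 38.5%. Among the weaker called peaks it was 8 of 12 members (66.7%), beside 50.8% of the promoter summits. This split was chosen after the values were seen and was not tested. The sequence of Vps28, which has the strongest peak, is not shown.

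Vps28, a subunit of ESCRT-I, had the highest peak of all members. Its signal was 3636 in the pooled list, 1925 in replicate 1 and 1719 in replicate 2. It ranked 19 among the 6100 called peaks and 21 in the list of each replicate. Among the 3583 called peaks that were the strongest at the promoter of a protein-coding gene it ranked 15. The peak spans 683 bp and has its summit on 2R at position 8080086, 45 bp upstream of the only annotated TSS of Vps28 (FBgn0021814, 8078869 to 8080041, minus strand). No other protein-coding gene starts within 500 bp of that summit, and the 100 bp on either side of it held 2 CHR words and 1 Myb word. The strength of this peak is part of why these genes were listed.

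**Figure D1:**
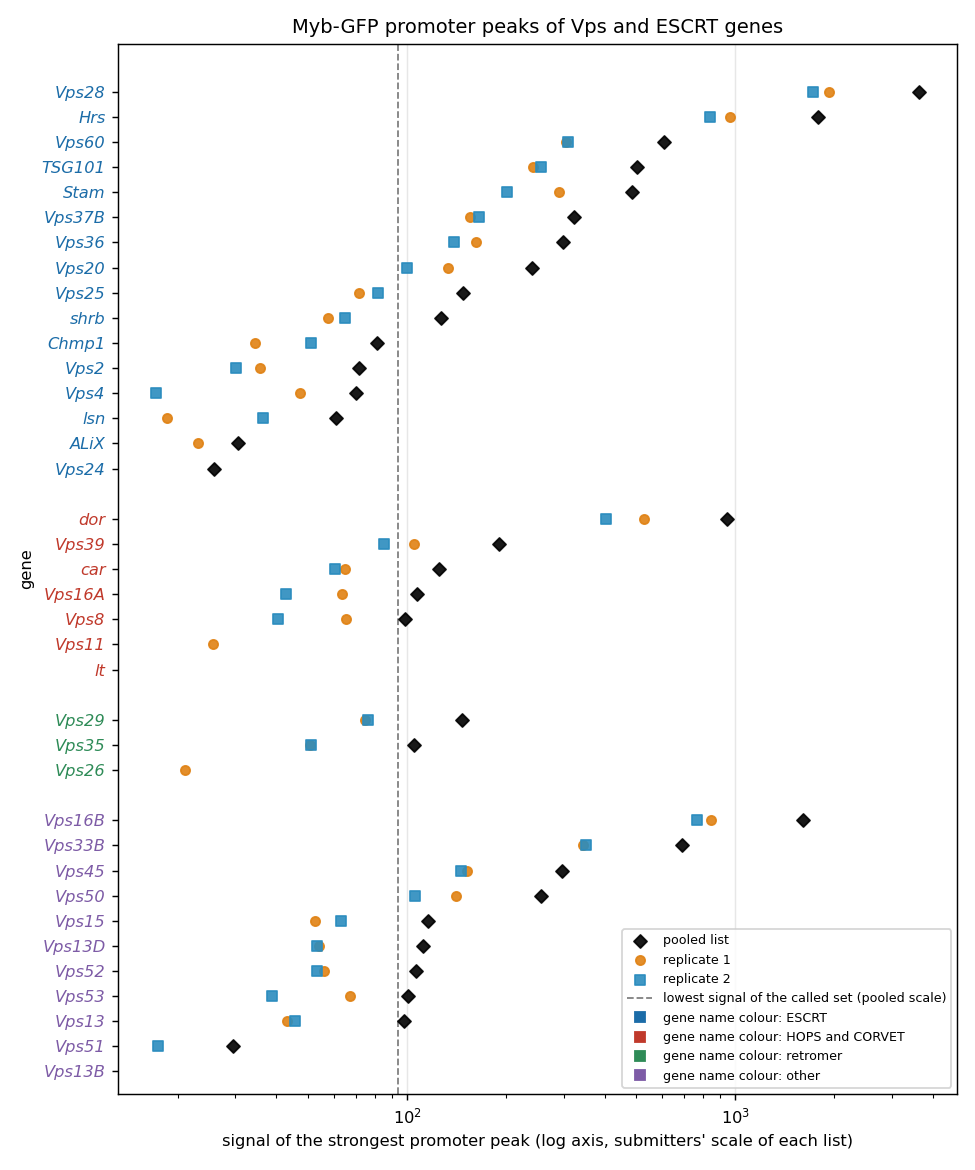
Signal of the strongest peak within 500 bp of a TSS for each of the 37 members (log axis), in the pooled list (diamonds), replicate 1 (circles) and replicate 2 (squares), with gene names coloured by complex; a missing symbol means no peak in that list, and the dashed line is the lowest signal of the called set, 93.9 on the pooled scale. Vps28 leads with 3636, and lt and Vps13B have no symbol at all.

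Both genes of ESCRT-0, which binds ubiquitinated cargo first, were bound. Hrs (FBgn0031450), which carries the lipid- and ubiquitin-binding domains of the pair, had 1792 in the pooled list, 961 in replicate 1 and 836 in replicate 2, and its summit stood 5 bp upstream of a TSS (2L, 2739981). A second called summit of 216 lay 138 bp downstream of a TSS of the same gene. Stam (FBgn0027363), the partner of Hrs, had 483, 291 and 201 in the same lists. Its strongest summit lay 401 bp upstream of the Stam TSS and 41 bp upstream of that of aurB, the gene for the mitotic kinase Aurora B, which points the other way. A weaker called summit of 144, 188 bp upstream of Stam, lay closer to it. The Stam peak was thus counted for Stam although its summit was at the aurB promoter.

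All 3 annotated ESCRT-I genes of the list were bound. Beside Vps28, TSG101, which binds the late-domain motif of its partners, had a pooled signal of 503, with 242 in replicate 1 and 256 in replicate 2. It had a second called summit of 339, 44 bp downstream of its TSS, while the stronger one lay 157 bp upstream. Vps37B, which completes the ESCRT-I stalk, had 322, 155 and 166, with the summit 12 bp upstream of the TSS. Neither gene shares its peak with another protein-coding gene. Mvb12, the fourth ESCRT-I subunit and not a member, had no called promoter summit.

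Of the ESCRT-II genes, which link ESCRT-I to ESCRT-III, Vps36 and Vps25 were bound and lsn (Vps22) was not. Vps36 had a pooled signal of 298, with 162 and 139 in replicates 1 and 2, at a summit between its own start, 77 bp away, and that of Liprin-beta, 65 bp away. Vps25 had 149, 71.4 and 81.5, with the summit 19 bp inside its 5' UTR. At lsn the relaxed lists held a pooled peak of 60.7, below the called set, and replicate values of 18.6 and 36.5.

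ESCRT-III genes fell on both sides of the call, 3 of 6 bound. Vps60 (CHMP5), a late-acting subunit, had 606 in the pooled list, 306 in replicate 1 and 309 in replicate 2. Vps20 (CHMP6), which starts the filament, had 240.3, 133 and 100.2. The core filament subunit shrb (CHMP4) had 127, 57.4 and 64.7, and its start is 42 bp from that of the splicing gene Prp38 on the other strand. The summit lay 17 bp inside the 5' UTR of Prp38 and 59 bp upstream of shrb. The other 3, Vps2, Vps24 and Chmp1, which cap or shape the filament, had relaxed peaks only. Their pooled signals were 71.2, 25.9 and 81.1. Vps24 had no promoter peak in either replicate list.

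Neither gene that acts with the filament was called bound. Vps4, the ATPase that disassembles ESCRT-III, had a pooled signal of 70.0, but 47.3 in replicate 1 against 17.2 in replicate 2, which are rank 5908 and rank 24273 of the 30000 peaks in each list. ALiX, which recruits ESCRT-III independently of ESCRT-I and ESCRT-II, had 30.6 in the pooled list, 23.0 in replicate 1 and no peak in replicate 2. In all, 10 of 16 ESCRT genes were bound (62.5%), beside 35.6% of all protein-coding genes. Each of the 6 others had a peak of the relaxed pooled list at its promoter. That list placed a peak at 59.1% of all protein-coding genes.

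HOPS and CORVET genes were bound in 5 of 7 cases (71.4%), beside 35.6% of all protein-coding genes. dor (Vps18, FBgn0000482), a core subunit named for the deep orange eye of its mutants, had 942 in the pooled list, 528 in replicate 1 and 402 in replicate 2. Its summit, at X, position 1665020, lay 32 bp upstream of the TSS and in an intron of Mur2B. The 4 others were far lower. Vps39, a HOPS subunit that contacts the relative of Rab7 in yeast, had 190.1, 105 and 85.0, with its summit 33 bp from the start of eIF1A and 186 bp from its own. car (Vps33A), the SM-type core subunit, had 125, 64.7 and 60.4 at a promoter it shares with Grip84, a gene of the gamma-tubulin ring complex. Vps16A, another core subunit, had 107, 63.4 and 42.6 between its start and that of TrpRS. Vps8, the CORVET subunit, had 98.5, 64.9 and 40.5, and its summit lay 353 bp upstream, 30 bp from the start of sfl. Replicate 2 placed Vps16A at rank 7404 and Vps8 at rank 7850, so with the strongest 6100 peaks of that replicate alone 3 of the 7 were bound, against 5 with those of replicate 1.

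The 2 HOPS and CORVET genes that were not bound lie far from any called peak. lt (Vps41, the light gene) had no promoter peak in any of the 4 lists, and the nearest called summit was 755477 bp away. Vps11 had a relaxed peak of 25.7 in replicate 1 only, with the nearest called summit at 271624 bp. lt starts at 22924795 on 2L, an arm of 23513712 bp, and is a well-known gene of pericentric heterochromatin. Vps11 ends at 23150499 on 3L. Whether reads could be placed uniquely around these genes was not tested.

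Of retromer, the gene for Vps29 had a signal of 147 in the pooled list, 74.7 in replicate 1 and 76.1 in replicate 2, with the summit 18 bp upstream of its TSS and 71 bp upstream of that of the TFIIH gene Tfb4. Vps35, the scaffold of the complex, had 105, 50.6 and 51.1, with the summit 25 bp inside its 5' UTR. Vps26, which binds cargo adaptors, had a relaxed peak of 21.1 in replicate 1 only. Neither retromer signal reached the 3050 called peaks with the higher signal, among which lay 8 of the 16 ESCRT genes and 2 of the 7 HOPS and CORVET genes. Among all protein-coding genes 21.6% had a promoter summit in that stronger part. By median over the bound genes the pooled signal was 403 for ESCRT (n = 10), 125 for HOPS and CORVET (n = 5) and 126 for retromer (n = 2). Within ESCRT it ran from 127 to 3636 and within HOPS and CORVET from 98.5 to 942, so the ranges overlap widely and no order of the complexes was tested.

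**Figure D2:**
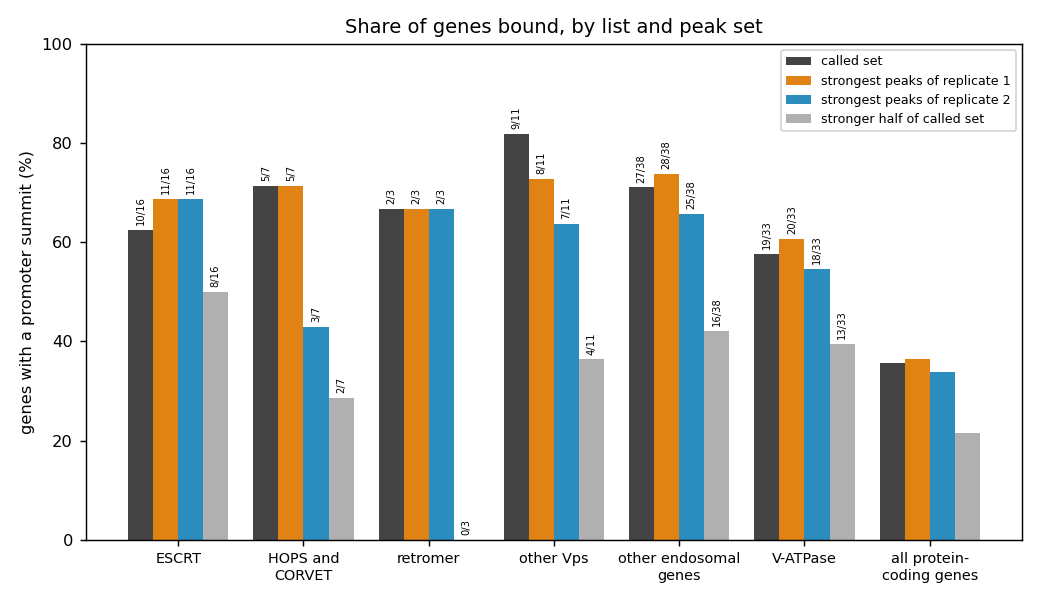
Percent of genes with a promoter summit for each complex, for the other endosomal genes, for V-ATPase genes and for all protein-coding genes, with bars for the called set, the strongest 6100 peaks of each replicate and the 3050 called peaks with the higher signal; numbers on the bars are genes bound of genes listed. Retromer has 2 of 3 bound in the called set and 0 of 3 among the peaks with the higher signal, and HOPS and CORVET has 5 of 7 with replicate 1 and 3 of 7 with replicate 2.

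The other Vps genes were bound in 9 of 11 cases (81.8%), beside 35.6% of all protein-coding genes. The 2 genes of the CHEVI pair, whose mammalian relatives act in late endosomal trafficking, had the third and the fifth strongest peaks of the list. Vps16B (FBgn0039702), known in flies for its role in phagosome maturation, had 1604 in the pooled list, 841 in replicate 1 and 764 in replicate 2, and its summit stood 34 bp upstream of the TSS (3R, 29816485). Vps33B had 689.7, 343 and 352, with 1 summit closer to the start of the furin gene Fur1 and a second of 481 only 58 bp upstream of Vps33B. Vps45, the SM protein of early endosomal fusion, had 296, 153 and 146 at a promoter shared with CG9393, and a second summit of 139 lay 14 bp from its own TSS.

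The GARP and EARP tethers, the lipid kinase regulator and the lipid transfer genes had lower signals. Vps50, the subunit that defines EARP, had 256 in the pooled list and 141 in replicate 1, and its summit, 448 bp upstream, lay in a coding exon of PIG-A. A second called summit of 209 lay 221 bp upstream. Replicate 2 had no summit within 100 bp of the stronger called summit, and its strongest peak within 500 bp of Vps50 was 105 on its own scale. Vps52 and Vps53, shared by both tethers, had pooled signals of 107 and 101. Vps51, the third shared subunit, was not bound and had 29.5 in the relaxed pooled list. Vps15, the regulatory subunit of the class III phosphatidylinositol 3-kinase, had 116. Vps13D and Vps13, large lipid transfer proteins, had 112 and 98.1, whereas Vps13B, whose start is 90 bp from that of eIF2Balpha, had no promoter peak in any of the 4 lists.

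Several members stood close to the limits of the call. The lowest called peaks among them were those of Vps13 (98.1), Vps8 (98.5) and Vps53 (101), and the lowest signal of the called set was 93.9. Just outside lay Chmp1 (81.1), Vps2 (71.2) and Vps4 (70.0). In distance, the farthest of the strongest summits were those of Vps50 (448 bp) and Stam (401 bp), which both have a second summit closer by, and no unbound member had a called summit closer than 1894 bp, the value for Chmp1. A window of 1000 bp therefore left the count at 26, beside 38.9% of all protein-coding genes, and a window of 250 bp gave 24, without Vps52 and Vps8, beside 30.9%. With the strongest 6100 peaks of replicate 1 alone, which called 36.5% of all protein-coding genes, 26 members were bound: Vps4 was gained and Vps13 lost. With those of replicate 2 alone, which called 33.9%, 23 members were bound: Chmp1 was gained, and Vps13, Vps16A, Vps53 and Vps8 were lost. Of the 26 bound members, 22 had a promoter peak among the strongest 6100 of both replicates. The same share over all bound protein-coding genes was not counted, so this number has no background beside it.

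Across the 26 bound genes the strongest promoter signals of the replicates had a Spearman rho of 0.920, beside 0.912 over 4948 bound protein-coding genes with a peak in both lists. The called set was selected by IDR from lists of these same replicates and the genes share 2 libraries, so both values are descriptions. The called set held the 6100 strongest pooled peaks, so a called peak need not rank high in both replicates. The widest gaps in rank among the bound members were at 3 weak peaks. Vps53 ranked 4266 in replicate 1 and 8237 in replicate 2, Vps8 4386 and 7850, and Vps16A 4489 and 7404. All 3 stood lower in replicate 2.

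**Figure D3:**
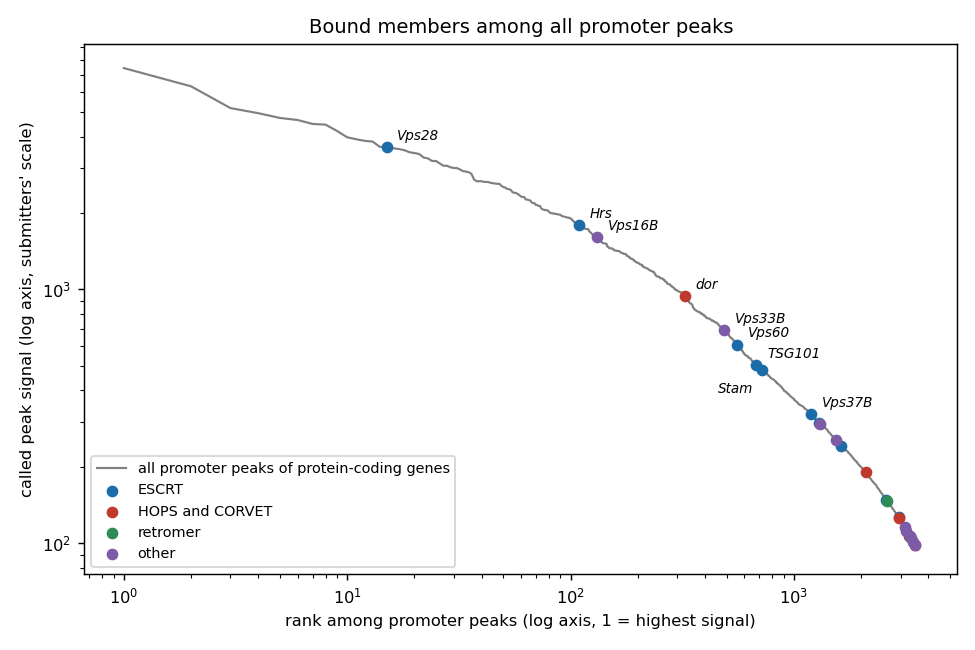
Signal of each called peak that is the strongest at the promoter of a protein-coding gene, against its rank (both axes log). The 26 bound members are coloured by complex and the 9 strongest are named. Vps28 stands at rank 15, Hrs at 109 and Vps16B at 131, and the others are spread down to rank 3489.

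Over all 26 bound members, the leading genes included, the median signal was 215, against 224 for all 4966 bound protein-coding genes, and 14 of 26 (53.8%) lay among the 3050 stronger peaks, against 60.8% of all bound genes. Peak width had a median of 476 bp for the bound members and for the called set. The strongest summit lay upstream of the TSS in 24 of 26 members (92.3%), against 87.2% of all bound genes, and within 100 bp of it in 16 (61.5%), against 57.2%. Taking the nearest called summit in place of the strongest, 22 members (84.6%) had it upstream, against 85.3% of all bound genes. The median distance was 64.5 bp for the members and 80.0 bp for all bound genes.

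Divergent neighbours were counted for all members. Of the 37 members, 22 have a start within 1 kb of a protein-coding start that points away on the other strand. Among all 13945 protein-coding genes 5052 do. Of these 22 members 16 were bound (72.7%), beside 60.1% of all protein-coding genes of that kind. Such genes were thus 16 of the 26 bound members, a share similar to the 3037 of all 4966 bound protein-coding genes. Of the 15 members without such a neighbour 10 were bound (66.7%), beside 21.7% of all such genes. By complex, the members without a divergent neighbour were bound in 6 of 8 ESCRT cases, 1 of 3 HOPS and CORVET cases (dor), 1 of 1 retromer case (Vps35) and 2 of 3 others. Those with a divergent neighbour were bound in 4 of 8 ESCRT, 4 of 4 HOPS and CORVET, 1 of 2 retromer and 7 of 8 other cases. These shares of few genes were not tested.

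Of the 26 bound members, 15 (57.7%) had the strongest summit also within 500 bp of another protein-coding gene, against 55.2% of all bound genes. All 15 neighbours start on the opposite strand. The summit was closer to the member in 5 pairs and closer to the neighbour in 10. Closer to the member were Vps13D, Vps13, Vps29, Vps16A and Vps60. Closer to the neighbour were the summits of Stam, shrb, Vps36, car, Vps39, Vps8, Vps33B, Vps45, Vps50 and Vps52. The neighbours include genes of cell division (aurB, Grip84), translation (eIF1A, TrpRS), transcription (Tfb4) and splicing (Prp38). The others are boca, CG10973, Fur1, Liprin-beta, CG9393, PIG-A, Elp4, anchor and sfl. The functions of neighbours over all bound genes were not counted. The 11 bound members that share no peak run from the 3 strongest, Vps28, Hrs and Vps16B, down to Vps53 (101). Between them are dor, TSG101, Vps37B, Vps20, Vps25, Vps15 and Vps35. Of the 11, Vps25, Vps15, Vps35 and Vps53 lay outside the 3050 stronger called peaks.

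**Figure D4:**
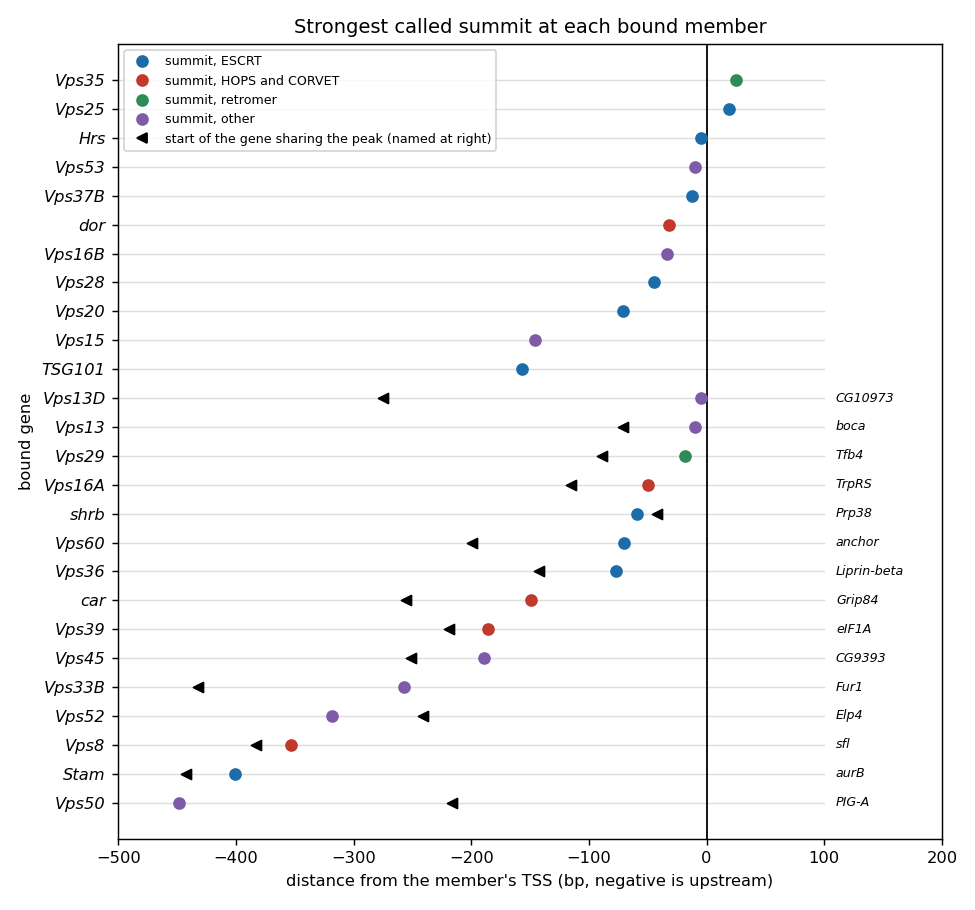
Position of the strongest called summit of each of the 26 bound members relative to the member's TSS at 0 (bp, negative is upstream), coloured by complex; triangles mark the start of the protein-coding gene that shares the peak, named at the right. The 15 shared peaks have summits from 5 to 448 bp upstream, and the 11 unshared ones lie between 157 bp upstream and 25 bp downstream.

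Words of the Myb-MuvB complex were counted around the member summits. A CHR word, which the MuvB subunit Mip120 binds, lay within 100 bp of 14 of 26 member summits (53.8%). The share was 46.2% over 3583 promoter summits, each the strongest of a protein-coding gene. It was 32.0% over windows of the same length at 19252 protein-coding TSSs. The Myb word was found at 7 (26.9%), beside 20.5% and 12.6%. Within 50 bp the order against promoter summits turned for the Myb word, with 2 members (7.69%) beside 11.5% of promoter summits and 6.80% of TSS windows. CHR stood at 8 members (30.8%) in that window, beside 23.2% and 16.7%. Both words together stood at 6 members (23.1%), namely Vps28, Hrs, Vps16B, Vps60, TSG101 and Vps20, beside 10.1% of the promoter summits. In a split chosen after the values were seen, CHR was found at 11 of the 14 member summits among the 3050 stronger peaks (78.6%) and at 3 of the 12 weaker ones (25.0%). Over all promoter summits these shares were 49.9% and 40.5%. With 12 and 14 summits the difference was not tested, and the weight of base composition was not tested either (median GC 36.6% in the member windows, 38.8% in all promoter summit windows).

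Other promoter words were rarer. The DRE core stood at 4 member summits (15.4%), those of dor, Vps16A, Vps52 and Vps53, beside 14.3% of promoter summits and 6.45% of TSS windows. Motif 1 was found at the summit counted for Stam alone (3.85%), beside 13.0% and 5.68%. That summit lies 41 bp from the start of aurB and 401 bp from that of Stam. The CACGTG word of the CLEAR element, which Mitf and its mammalian relative TFEB bind at lysosomal genes, was found at 0 of 26 summits, beside 3.07% and 2.80%. The E2F words were also found at 0 of 26, beside 5.61% and 4.77%. A match is a description of these letters only, and its absence says nothing of the factor.

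Other genes of the endosomal pathway, from a list of 38 that excludes the members, were bound in 27 cases (71.1%), close to the share of the members. Of all protein-coding genes 35.6% were bound by the same rule. Of the 38 genes, 23 have a divergent promoter, beside 5052 of all 13945 protein-coding genes. The sorting nexin gene Snx27, whose mammalian relative works with retromer, had the highest signal of this list, 2666 in the called set, with 1310.4 in replicate 1 and 1360.4 in replicate 2. It was followed by the SNARE gene Ykt6 (1817, a peak shared with hdm), the sorting nexin gene Snx1 (1094), the ESCRT-III gene CHMP2B (1019.8, shared with Tcs5) and the SNARE gene Vamp7 (867, shared with Sting). Pi3K59F, the fly Vps34, was not bound, and scat, the fly Vps54, had 284 at a promoter shared with FucTB. The Rab genes Rab5 (129) and Rab7 (172) were bound and Rab11 was not. These 5 genes, like Mvb12 above, were named after their values were seen. Of the 33 V-ATPase genes, which encode the proton pump that acidifies endosomes, 19 were bound (57.6%), beside the same 35.6% of all protein-coding genes. The bound V-ATPase genes had a median signal of 254, against 215 for the bound members.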

How the data were processed

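Myb-GFP was profiled by ChIP-seq in 2 biological replicates, from chromatin that, per the labels, was sonicated to 200 to 800 bp. The files used were 4 peak lists on dm6. Per the labels' file listing, relaxed lists of 30000 peaks were called with a control for each replicate and for the pooled alignments, and the called set was selected from them by IDR. It held exactly the 6100 strongest peaks of the pooled list. Each peak's signal was used as deposited. It is the authors' value, and no source used here gives its scale, the aligner or the caller. The deposited summit offset, in the other column used, was added to the interval start, and positions are 1-based. Of the 6100 entries, 96 repeat an interval with another summit. Lists on dm3 were not used.

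TSSs came from Ensembl release 115. All 37 members had the same coordinates in RefSeq, and the lengths of the 6 arms were compatible. Assignment was tested on simulated summits. Each gene was given its strongest summit, and 33 members have 1 TSS. Counts are set beside all protein-coding genes and no test was run, since the series has 1 group. Named were all members, genes sharing their peaks and the 5 strongest pathway genes, plus 6 pathway genes named after their values were seen. Of the names written for the complexes, 3 (Vps37A, Vps34 and Vps54) matched no symbol. Members, lists and words were chosen with earlier results of these data known. Alternatives were other promoter windows and peak sets, 1 start per gene, 1 summit per interval and a shorter word window. Scripts used Python 3.11.15 and pandas 2.3.3.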

Additional observations from a re-analysis of the deposited data

How the results depend on the processing

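The count of 26 bound members was 24 with a 250 bp window, beside 30.9% of all protein-coding genes. With a 1000 bp window it was 26, beside 38.9%. It was also 26 with the outermost start of each gene (33.7% of all genes) or 1 summit per interval (35.6%). With every peak of the relaxed pooled list it was 33, beside 59.1%. It was 23 to 26 when either replicate was left out, beside 33.9% to 36.5%. With the 3050 stronger called peaks it was 14, beside 21.6%. Among the 15 members without a divergent promoter it was 10 with all called peaks, beside 21.7% of such genes, a restriction chosen after the data were seen. The same stronger peaks left 2 HOPS and CORVET genes, 0 retromer genes and 16 of 27 pathway genes. All 16 ESCRT genes had a peak of the relaxed pooled list, beside 59.1% of all protein-coding genes. HOPS and CORVET had 3 to 5 bound when either replicate was left out. The replicate settings read as many peaks as the called set, and the cause of these changes was not tested. The rank of Vps28 among promoter peaks was 15, and 17 with a 1000 bp window. It was 15 to 17 when either replicate was left out. Within 50 bp of the summit CHR was found at 8 members and the Myb word at 2 (7.69%, below the 11.5% of all promoter summits, whereas within 100 bp it was above). Within 100 bp of the 12 weaker member summits CHR was found at 3 and the Myb word at 1, beside 40.5% and 14.6% of the weaker promoter summits. No paired analysis was possible because the series has 1 group and no test was made. Depth is unknown, so no counting interval limits the weak peaks.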
